A study of Mus musculus with 4 samples.

Results

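The 9 genes described here encode peptidases that sit at, or are anchored in, the luminal surface of intestinal epithelial cells. They are the aminopeptidases Anpep and Enpep, the dipeptidyl peptidase Dpp4, the endopeptidases Mme, Mep1a and Mep1b, the C-terminal peptidase Ace, the glutamate carboxypeptidase relative Naaladl1, and enteropeptidase, Tmprss15. They were taken by symbol as a family known from gut physiology. These members and the gene lists used below were chosen with earlier results of these data known. All 9 were found among the 20799 condensed genes built from the deposited exon table of the mouse genome assembly mm9. The data were 4 RNA-seq libraries from intestine of C57BL/6 mice 9 to 10 weeks old, with no treatment and no transgene. There was 1 library of small intestine and 1 of colon for each of 2 protocols. In the cDNA fragmented libraries, polyadenylated RNA was copied from an oligo-dT primer with the SMART template switch and the cDNA was then sheared. The ribosomal RNA-depleted libraries were made with the SOLiD Whole Transcriptome Analysis Kit, which fragments the RNA itself and keeps its strand. For this kit the study's methods describe a poly(A) enrichment where the labels give ribosomal RNA depletion, and name a later SOLiD version than the labels do. The study also lists several times more total reads for its RNA fragmented libraries than the 36419942 and 37466674 of these libraries. Its totals for the cDNA fragmented libraries are the same as here. The account of the kit thus describes other sequencing runs and may concern other libraries. The study's methods name jejunum and distal colon as the tissues of the libraries they describe. The labels call both total tissue, so epithelium, muscle and immune cells were read together. The study describes its small intestine and colon datasets as coming from the same individuals. How many animals stood behind each library, and which libraries here share animals, is not given in the sources used here.

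Dietary protein is cut first in the lumen by pancreatic proteases, and the resulting oligopeptides are then trimmed by enzymes of the microvillus membrane to free amino acids and to the di- and tripeptides that epithelial transporters take up. Aminopeptidases take residues from the N-terminus, dipeptidyl peptidase 4 takes dipeptides from it, neprilysin and the meprins cut inside the chain, and angiotensin-converting enzyme takes dipeptides from the C-terminus. Enteropeptidase stands at the head of this chain, because it cuts trypsinogen to trypsin, which in turn activates the other pancreatic zymogens.

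The libraries held 22484041 uniquely placed reads for small intestine and 24798934 for colon in the cDNA fragmented pair, against 2035386 and 3478387 in the ribosomal RNA-depleted pair. Levels are given as RPKM, the reads on a gene's exon blocks per 1000 bases of block and per 1000000 uniquely placed reads, with exact Poisson intervals of 95%. Ratios between tissues carry exact conditional intervals. Both kinds of interval cover counting error only and leave out any spread between animals or libraries. Reads were not tagged by molecule, so copies of the same molecule count as separate reads and the intervals can be too narrow. No p-value is given, because each tissue and protocol had 1 library, and a joint fit over both protocols was not run. The tissue labels were met by the markers: all 6 enterocyte markers were at least 3-fold higher in small intestine and all 4 colonocyte markers at least 3-fold higher in colon in both protocols. Fabp6, best known from ileum, stood at 1185 and 311 RPKM in the small intestine libraries and at 32.4 and 5.20 RPKM in colon, while Slc10a2, the other ileal gene listed, was lower in small intestine than in colon, at 13.3 against 29.04 RPKM with fragmented cDNA and 49.2 against 102 RPKM with ribosomal RNA depletion. In bulk tissue, fewer cells of a type and less RNA per cell cannot be told apart.

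A gene was counted as higher in a tissue when its RPKM was at least 3 times the other tissue's RPKM with 1 RPKM added, among genes with at least 10 reads in the pair. In the cDNA fragmented pair, 2.99% of 14993 genes met this for small intestine and 3.51% for colon. In the ribosomal RNA-depleted pair the shares were 4.14% and 7.33% of 13203 genes. Of the 9 peptidases, 8 met the rule for small intestine in each pair and 0 met it for colon, and 8 genes met it in both pairs. The remaining gene was Mep1a. Counting start positions in place of reads ended the call of Mep1b in the cDNA fragmented pair and left 7. The median log2 ratio of small intestine to colon over the 9 genes, with 0.1 RPKM added, was 5.03 in the cDNA fragmented pair and 3.91 in the ribosomal RNA-depleted pair, beside -0.37 and -0.41 over all genes tested. The first of these medians is that of Tmprss15, which had no read in colon in that pair, and becomes 5.68 when that gene is set to its lower bound. Together the 9 genes took up 1.52% of the small intestine reads and 0.0675% of the colon reads with fragmented cDNA, and 1.21% and 0.105% after ribosomal RNA depletion. Scaling by the median of ratios over 13958 genes in place of total reads shifted the log2 ratio of RPKM, with nothing added, up by 0.33 in the first pair and 0.34 in the second. It turned the split of all called genes from 449 for small intestine and 526 for colon to 585 and 412 in the cDNA fragmented pair, and from 547 and 968 to 693 and 550 in the other. Ratios of levels between the protocols, given below for single genes, were scaled by total reads only.

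**Figure D1:**
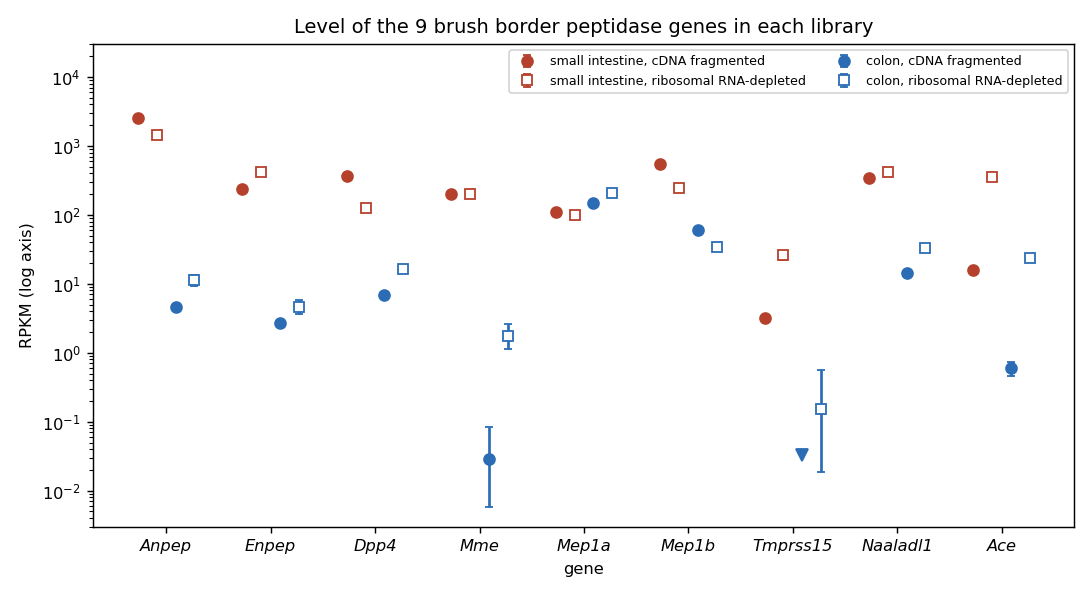
Level of each peptidase gene in the 4 libraries, in RPKM on a log axis, with small intestine in red, colon in blue, filled circles for fragmented cDNA and open squares for ribosomal RNA depletion. Bars are 95% Poisson intervals and the triangle marks the limit of 3 reads for Tmprss15, which had no read in that library. Mep1a is the only gene whose colon values lie above its small intestine values.

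Anpep, aminopeptidase N, which removes neutral residues from the N-terminus of oligopeptides, was the most abundant of the 9 in small intestine by either protocol. Its level was 2513 RPKM (2502 to 2524) in the cDNA fragmented library and 1459 RPKM (1430 to 1487) in the ribosomal RNA-depleted library, which placed it at rank 36 and rank 27 of all genes. In colon it stood at 4.55 RPKM (4.11 to 5.03) and 11.3 RPKM (9.44 to 13.3). The tissues were thus separated by more than any counting interval, with a ratio of 552 (500 to 612) from 193301 and 386 reads in the first protocol and 130 (109 to 155) from 10156 and 134 reads in the second. Anpep lies on the minus strand at chr7:86966691-86987238 and was read on 20 of 20 exon blocks in both small intestine libraries.

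Enpep, aminopeptidase A, which takes acidic residues and is also known for cutting angiotensin II, had tissue ratios that counting error did not separate between the protocols. Its levels differed when scaled by total reads. Median-of-ratios scaling raises the cDNA fragmented levels and lowers the others in both tissues, which narrows that difference. Small intestine gave 235 RPKM (232 to 238) and 414 RPKM (401 to 428), and colon gave 2.69 RPKM (2.39 to 3.03) and 4.65 RPKM (3.61 to 5.89), in the cDNA fragmented and ribosomal RNA-depleted libraries respectively. Small intestine exceeded colon by a factor of 87.1 (77.5 to 98.4) by the first protocol and 89.2 (70.2 to 115) by the second. The first ratio divided by the second was 0.977, with an interval of 0.748 to 1.28 that spans 1. Enpep occupies chr3:128972095-129035667 on the minus strand.

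Dpp4, dipeptidyl peptidase 4, which frees dipeptides that carry proline or alanine in the second place and also inactivates incretin hormones, was higher in small intestine by a margin that depended on the protocol. Its level there was 364 RPKM (361 to 367) with fragmented cDNA and 127 RPKM (121 to 134) with ribosomal RNA depletion. The colon libraries gave 6.98 RPKM (6.57 to 7.405) and 16.6 RPKM (14.9 to 18.4). The tissue ratio was 52.1 (49.1 to 55.4) in one pair and 7.69 (6.86 to 8.64) in the other, a 6.78-fold difference between the ratios (5.96 to 7.71). Dpp4 was thus lower in the second protocol in small intestine and higher in it in colon. The size of the difference between the ratios depended on the count. With start positions in place of reads, the log2 ratios were 2.70 with fragmented cDNA and 2.29 with ribosomal RNA depletion. Over the last 1000 exonic bases they were 4.09 and 2.16. The gene lies on the minus strand at chr2:62168132-62250288.

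Mme, neprilysin, a zinc endopeptidase that also degrades many regulatory peptides, had the widest tissue ratio in the cDNA fragmented pair among the genes with reads in both tissues. In small intestine it was at 200.2 RPKM (197 to 203) and 201 RPKM (192 to 211). Scaled by total reads, the protocols thus differed by less than the counting error there, with a ratio of 1.004 (0.955 to 1.05). Median-of-ratios scaling changes the small intestine depth, in units of 1000000 reads, from 22.484 to 16.2195 with fragmented cDNA. With ribosomal RNA depletion the depth goes from 2.03539 to 2.24165. That scaling raises the cDNA fragmented level and lowers the other, so the near equality is tied to total reads. In colon 3 reads were found with fragmented cDNA, or 0.0285 RPKM (0.00588 to 0.0834), and 26 reads with ribosomal RNA depletion, or 1.76 RPKM (1.15 to 2.58). The tissue ratio was 7018 by the first protocol, with a counting interval of 2401 to 34036 that reflects the 3 reads, and 114 (77.6 to 175) by the second. All 3 colon reads of the cDNA fragmented library fell on the last exon block, whereas the 26 reads of the other library were spread over 9 of 23 blocks. Mme lies on the plus strand at chr3:63099794-63186153.

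Counted by reads, Anpep, Dpp4, Mme, Naaladl1, Ace and Mep1b had narrower ratios in the ribosomal RNA-depleted pair, the most so Anpep, Dpp4 and Mme. The first ratio divided by the second was 1.86 (1.60 to 2.16) for Naaladl1 and 1.28 (1.11 to 1.46) for Mep1b. Enpep did not narrow beyond counting error. By start positions, which saturate for abundant transcripts, Anpep did not narrow, with log2 ratios of 3.98 with fragmented cDNA and 4.61 with ribosomal RNA depletion. Nor did Naaladl1, at 2.23 and 2.51, or Mep1b, at 0.96 and 2.07. Those of Dpp4, Mme and Ace still narrowed. The read ratios stood beside values of 3 markers, chosen after their values were seen, that were nearly absent from one tissue with fragmented cDNA. The enterocyte gene Apoa4 had 9 reads in the colon library made from fragmented cDNA and 314 in the ribosomal RNA-depleted one, and lactase, Lct, had 4 and 89, although the second library held fewer reads. In the reverse direction, the colonocyte carbonic anhydrase Car1 had 0 reads in the cDNA fragmented library of small intestine and 68 in the ribosomal RNA-depleted one. Of the other enterocyte markers, the ratio of Sis, sucrase-isomaltase, went from 380.3 to 85.8, that of Fabp2, a fatty acid binding protein, from 8.52 to 8.05, that of Vil1, villin, from 3.67 to 3.36, and that of Alpi, intestinal alkaline phosphatase, from 27.4 to 32.6. Of the other colonocyte markers, the excess in colon of the water channel Aqp8 went from 11863-fold to 224-fold, that of Car4 from 5.82-fold to 11.7-fold, and that of Slc26a3 from 6.66-fold to 8.12-fold. Some markers thus had narrower ratios and others did not. The part of this in the peptidase ratios was not tested.

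The meprins are astacin-type metalloproteases whose alpha and beta chains are encoded by Mep1a and Mep1b and can join in one enzyme, with the beta chain holding it at the membrane. The 2 genes behaved differently between the tissues. Mep1a alone was higher in colon, at 147 RPKM (145 to 150) and 209 RPKM (199.8 to 218), against 112 RPKM (109 to 114) and 101 RPKM (92.6 to 109) in small intestine, in the cDNA fragmented and ribosomal RNA-depleted libraries. The colon level was 1.32 times the small intestine level (1.28 to 1.36) by the first protocol and 2.08 times (1.89 to 2.28) by the second. On the log2 scale with 0.1 RPKM added these are ratios of small intestine to colon of -0.40 and -1.05, so that in the first pair Mep1a sat close to the median of all genes tested, -0.37. With the median-of-ratios scaling the first value became -0.07 and the second -0.71. By exon block and scaled by total reads, Mep1a was higher in colon at 9 of the 13 blocks with reads in the cDNA fragmented pair. In the ribosomal RNA-depleted pair it was higher in colon at all 13. With median-of-ratios scaling most of the blocks in the first pair would be higher in small intestine, so that block count is tied to total reads. The blocks of the second pair would all stay higher in colon.

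By RPKM over the full length Mep1b, in contrast, was second of the 9 in small intestine with fragmented cDNA, at 552 RPKM (546 to 559). It stood at 246 RPKM (232 to 261) with ribosomal RNA depletion. Its colon levels were 60.5 RPKM (58.5 to 62.6) and 34.5 RPKM (30.5 to 38.8). Its tissue ratio was 9.12 (8.81 to 9.46) and 7.14 (6.25 to 8.18). In the second pair this interval overlapped that of Dpp4, 7.69 (6.86 to 8.64), and over the last 1000 exonic bases the log2 ratio was 2.80 for Mep1b and 2.16 for Dpp4. Per kilobase, the beta transcript exceeded the alpha transcript in small intestine by 4.95-fold (4.82 to 5.08) with fragmented cDNA and by 2.45-fold (2.22 to 2.71) with ribosomal RNA depletion. In colon the order was turned, with alpha above beta by 2.43-fold (2.34 to 2.53) and 6.05-fold (5.34 to 6.89). Mep1a is on chromosome 17, on the minus strand at chr17:43611278-43639722, and Mep1b is on chromosome 18, on the plus strand.

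Ace, angiotensin-converting enzyme, is carried by endothelium as well as by the intestinal brush border. In small intestine it was at 15.6 RPKM (14.9 to 16.3) with fragmented cDNA and at 355 RPKM (343 to 366) with ribosomal RNA depletion, a 22.7-fold difference between protocols (21.5 to 24.1). In colon it was at 0.595 RPKM (0.468 to 0.746) and 23.4 RPKM (21.2 to 25.8), a 39.4-fold difference (30.7 to 51.0). No other of the 9 genes differed as much between the protocols in small intestine. The tissue ratio was 26.2 (20.8 to 33.5) in the first protocol and 15.1 (13.7 to 16.8) in the second, a 1.73-fold difference between the ratios (1.35 to 2.23). The 6 endothelial markers summed to 27.4 RPKM in small intestine and 24.7 in colon with fragmented cDNA, and to 16.4 and 31.7 with ribosomal RNA depletion, and 0 of the 6 met the rule in either direction. Ace lies on the plus strand at chr11:105829261-105851259.

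Naaladl1, a membrane-anchored relative of glutamate carboxypeptidase II, was at 344 RPKM (339 to 350) and 420 RPKM (402 to 440) in small intestine and at 14.4 RPKM (13.4 to 15.4) and 32.6 RPKM (28.7 to 36.9) in colon. Its ratio was 23.96 (22.3 to 25.8) with fragmented cDNA and 12.9 (11.3 to 14.7) with ribosomal RNA depletion. The gene lies on the plus strand at chr19:6105798-6115555.

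Tmprss15, enteropeptidase, a serine protease best known from duodenum, had the lowest RPKM of the 9 in every library. In the cDNA fragmented library of colon its interval overlapped that of Mme. Small intestine gave 3.16 RPKM (2.79 to 3.57) from 265 reads and 25.8 RPKM (22.4 to 29.7) from 196 reads, so the second protocol was 8.17 times the first (6.76 to 9.86). In colon there were 0 reads in the cDNA fragmented library, which allows up to 0.0325 RPKM at 3 reads, and 2 reads in the ribosomal RNA-depleted library, or 0.154 RPKM (0.0187 to 0.557). The gene was therefore at least 97.4-fold higher in small intestine in the first pair, taken against 3 reads in the colon library, and the exact interval of the ratio begins at 78.7. In the second pair the ratio was 167, with a counting interval of 45.7 to 1393. Tmprss15 lies on the minus strand at chr16:78953709-79091342.

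**Figure D2:**
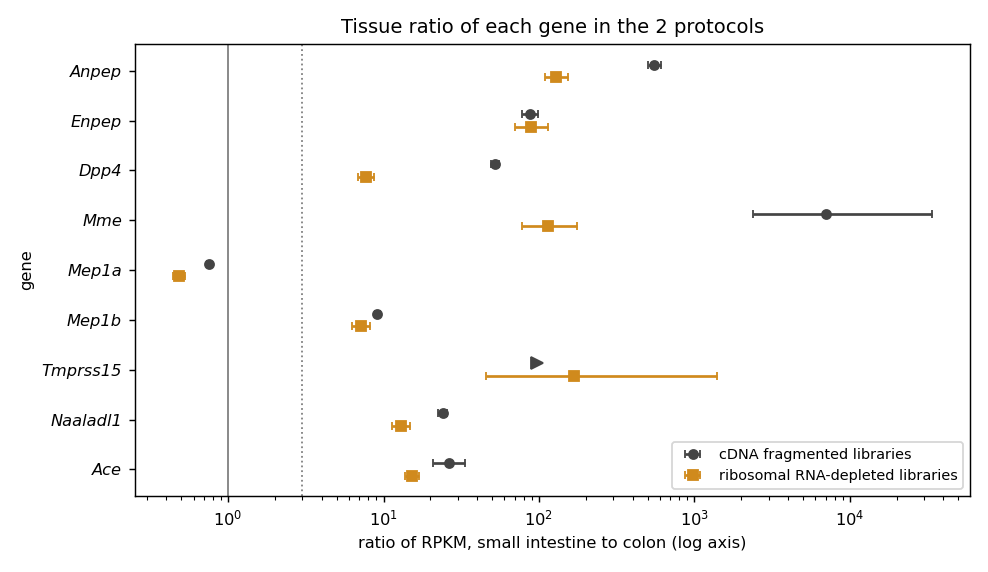
Ratio of RPKM in small intestine to RPKM in colon for each peptidase gene, on a log axis, with circles for fragmented cDNA and squares for ribosomal RNA depletion. Bars are 95% counting intervals, the arrowhead is the lower bound of 97.4 for Tmprss15, the solid line marks equal levels and the dotted line a ratio of 3. All genes but Mep1a lie to the right of the dotted line.

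The order of levels was not the same in the protocols. In small intestine with fragmented cDNA the order by RPKM over the full length was Anpep, Mep1b, Dpp4, Naaladl1, Enpep, Mme, Mep1a, Ace and Tmprss15, with no overlap of intervals between neighbours. Over its blocks 2 to 24 alone Dpp4 was at 642 RPKM there, above the 552 RPKM of Mep1b, so their order depended on the length counted. With ribosomal RNA depletion the full-length order was Anpep, Naaladl1, Enpep, Ace, Mep1b, Mme, Dpp4, Mep1a and Tmprss15, and the intervals of Naaladl1 and Enpep overlapped. In colon Mep1a led in both protocols, followed by Mep1b and Naaladl1, whose intervals overlapped with ribosomal RNA depletion. The lowest places in colon were held by Mme and Tmprss15 in both, and their intervals overlapped in the cDNA fragmented library. Dividing by the length that can hold a whole read, an alternative chosen after the data were seen, exchanged Dpp4 and Naaladl1 in the first order and Mep1b and Naaladl1 in the ribosomal RNA-depleted colon library.

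The starts of these genes could be set beside the reads, and 7 of the 9 had a window in the RefSeq promoter table of assembly GRCm38.p6, which runs from 250 bases before to 50 bases after each annotated start. Each window used here was found letter for letter at 1 place in mm9, and the mm9 position is given. Mep1b and Naaladl1 had no entry. For Anpep the table's only start lies 5858 bases upstream of the first exon block of the deposited reference, so the window of the same size around that first block was read from mm9 instead. The windows below are shown because they are the starts of the most abundant gene in small intestine, of the gene with like ratios in both protocols, of the gene not higher in small intestine, of the gene with no read in the cDNA fragmented library of colon, and of both starts of Ace. Capitals mark the letters GTTAAT of an HNF1 core, AGATAA of a GATA site and TATAAA of a TATA box, on either strand.
Anpep, first exon block, chr7:86987189-86987488, minus strand: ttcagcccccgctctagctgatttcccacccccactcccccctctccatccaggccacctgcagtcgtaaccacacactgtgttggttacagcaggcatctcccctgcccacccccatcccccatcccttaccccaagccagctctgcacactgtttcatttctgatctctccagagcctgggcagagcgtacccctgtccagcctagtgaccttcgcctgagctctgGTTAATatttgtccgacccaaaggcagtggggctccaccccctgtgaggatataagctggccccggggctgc
Enpep, chr3:129035618-129035917, minus strand: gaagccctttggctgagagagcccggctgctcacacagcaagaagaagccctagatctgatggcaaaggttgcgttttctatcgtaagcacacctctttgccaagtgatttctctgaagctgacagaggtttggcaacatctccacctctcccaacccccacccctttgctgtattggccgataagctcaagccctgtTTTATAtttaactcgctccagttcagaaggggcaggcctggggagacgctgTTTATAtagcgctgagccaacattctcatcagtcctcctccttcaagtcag
Mep1a, chr17:43639673-43639972, minus strand: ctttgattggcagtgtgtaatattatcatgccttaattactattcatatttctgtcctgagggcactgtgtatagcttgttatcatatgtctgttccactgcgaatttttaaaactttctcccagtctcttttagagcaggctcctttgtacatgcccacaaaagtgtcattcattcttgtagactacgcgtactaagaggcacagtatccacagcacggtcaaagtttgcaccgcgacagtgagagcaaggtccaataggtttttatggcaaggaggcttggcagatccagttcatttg
Tmprss15, chr16:79091293-79091592, minus strand: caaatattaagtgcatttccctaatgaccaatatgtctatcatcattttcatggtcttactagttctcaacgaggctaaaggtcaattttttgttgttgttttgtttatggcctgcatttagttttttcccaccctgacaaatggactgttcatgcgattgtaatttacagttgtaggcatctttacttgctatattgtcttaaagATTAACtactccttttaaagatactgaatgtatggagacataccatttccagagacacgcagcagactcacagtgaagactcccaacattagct
Ace, first start, chr11:105829012-105829311, plus strand: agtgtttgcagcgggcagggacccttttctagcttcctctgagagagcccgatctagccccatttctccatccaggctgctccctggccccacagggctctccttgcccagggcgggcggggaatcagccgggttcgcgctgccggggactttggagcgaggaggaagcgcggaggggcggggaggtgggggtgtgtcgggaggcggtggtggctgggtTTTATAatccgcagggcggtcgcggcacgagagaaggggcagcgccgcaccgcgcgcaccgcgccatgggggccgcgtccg
Ace, internal start, chr11:105836253-105836552, plus strand: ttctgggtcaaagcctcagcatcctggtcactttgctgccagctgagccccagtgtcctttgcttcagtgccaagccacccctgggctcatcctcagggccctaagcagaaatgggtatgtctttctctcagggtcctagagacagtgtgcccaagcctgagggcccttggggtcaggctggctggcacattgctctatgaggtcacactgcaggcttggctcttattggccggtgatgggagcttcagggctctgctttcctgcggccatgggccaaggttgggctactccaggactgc

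Over the 32851 windows of the table, 7.10% held GTTAAT, 11.2% held AGATAA and 13.6% held TATAAA. Of the 10 windows of the peptidases in the table, 1, 1 and 3 held them. The HNF1 core stood in the Tmprss15 window, with its first base 44 bases before the start. It also stood in the Anpep block window, which is not among the 10, 22 bases before the first base of the block. The Anpep window of the table held none of these letters. In the Dpp4 window, not shown, AGATAA lay 32 bases and TATAAA 227 bases before the start. In the Enpep window TATAAA was found on the opposite strand 52 bases before the start and again at the start itself, and in the first Ace window on the opposite strand 31 bases before it. The Mep1a window held none of the 3 letter sets. The shorter letters TTTAT of a Cdx site and CAAAG of an HNF4 site were in 40.01% and 53.9% of all windows, and in 5 and 7 of the 10 windows of the peptidases. TTTAT overlaps the TATA box letters in the Enpep, Dpp4 and first Ace windows, where the same bases serve both. The complete HNF1 palindrome was in 0 of the 10 and in 0.0609% of all windows. The GC content of the windows shown ran from 36.3% for Tmprss15 and 42.3% for Mep1a to 69.7% at the first start of Ace.

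The internal start of Ace lies within the gene, at the promoter that is known to drive a shorter form in male germ cells, and exon block 13 of the deposited reference (chr11:105836522-105836717) begins just after it. In small intestine that block had few reads beside its neighbours. There it had 9 reads over 196 bases with ribosomal RNA depletion, or 22.6 RPKM, beside 342 RPKM over blocks 1 to 12 and 386 RPKM over blocks 14 to 26. In the ribosomal RNA-depleted library of colon it had 0 reads, beside 21 on block 12 and 21 on block 14. In the cDNA fragmented library of colon no contrast could be seen, since blocks 9 to 12 also had 0 reads. With fragmented cDNA it had 1 read in small intestine. The reads of Ace in these tissues thus lay mainly on the blocks on either side of the internal first exon. Blocks 7 and 22 of Ace overlap another annotated gene, and no Ace read of the strand-specific libraries was antisense.

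**Figure D3:**
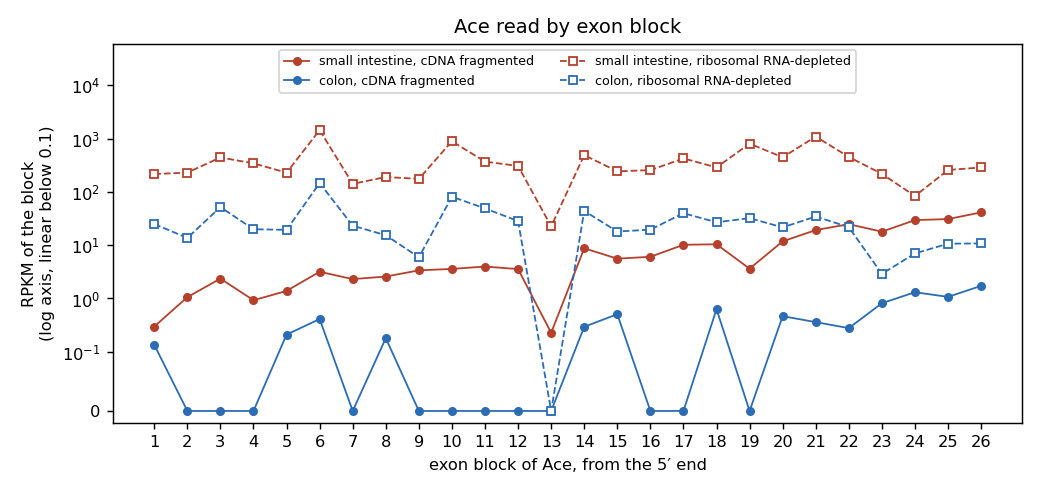
RPKM of each of the 26 exon blocks of Ace from the 5′ end, on an axis that is logarithmic above 0.1 and linear below, with small intestine in red, colon in blue, filled circles for fragmented cDNA and open squares for ribosomal RNA depletion. Block 13 is low or at 0 in every library, with 0 reads on blocks 9 to 12 too in the cDNA fragmented library of colon, and the cDNA fragmented values climb towards block 26.

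Ace also showed the strongest skew along the transcript of the 9 genes in small intestine with fragmented cDNA. With fragmented cDNA, blocks 1 to 12 were at 2.17 RPKM and blocks 14 to 26 at 25.7 RPKM in small intestine, while with ribosomal RNA depletion the same stretches stood at 342 and 386 RPKM. In the 3′ 50% of the exonic length lay 91.2% of the Ace reads (89.8 to 92.5) in the cDNA fragmented library of small intestine and 55.2% (53.6 to 56.8) in the ribosomal RNA-depleted one. Over the last block alone, 1144 bases long, the levels were 41.3 and 288 RPKM, a 6.97-fold difference (6.32 to 7.69) in place of 22.7-fold over the gene. The tissue ratio of that block was 23.9 (18.0 to 32.6) in the first pair and 26.7 (19.6 to 37.2) in the second. In the ribosomal RNA-depleted pair the 5′ and 3′ sides of Ace did not give the same tissue ratio: it was 10.5 (9.11 to 12.2) over blocks 1 to 12 and 20.5 (17.6 to 23.8) over blocks 14 to 26.

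**Figure D4:**
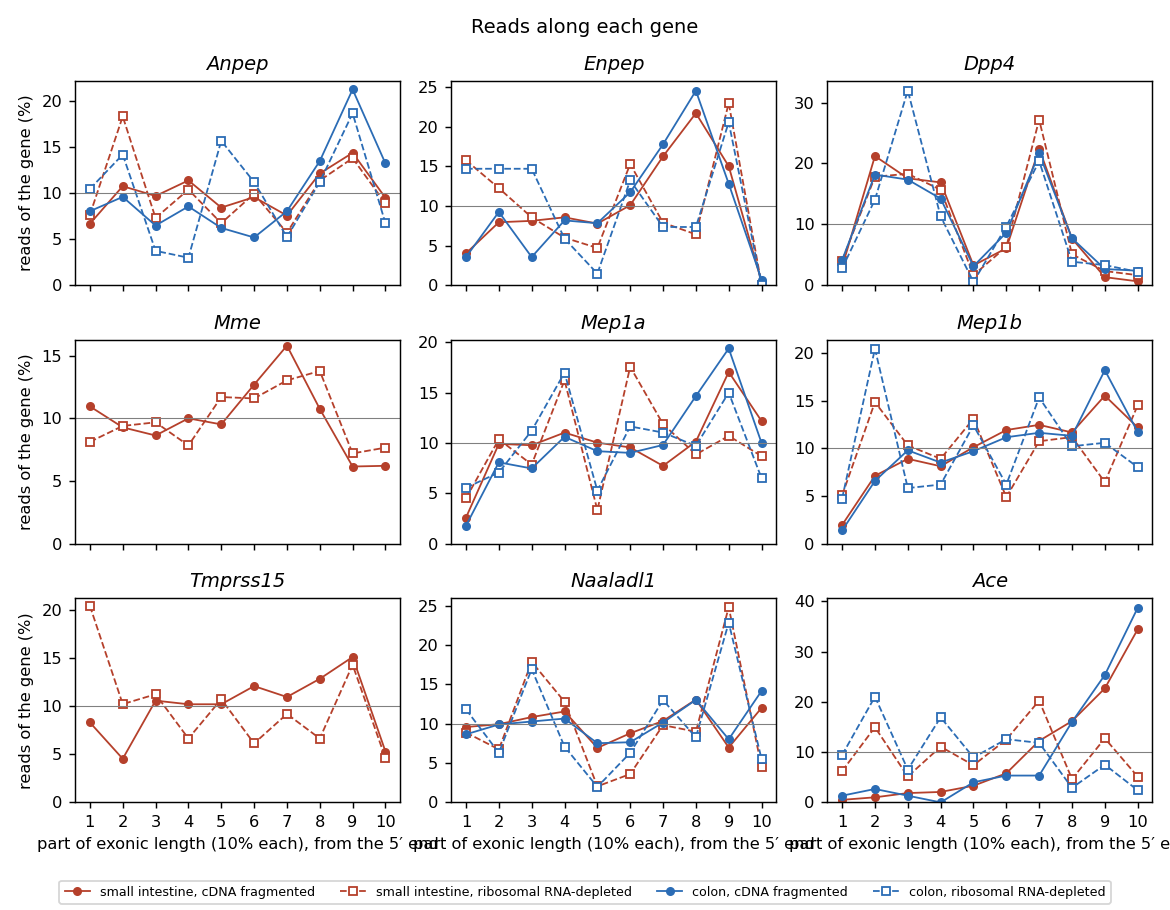
Share of each gene's reads in 10 equal parts of its exonic length, from the 5′ end, for libraries with at least 50 reads on the gene, with small intestine in red, colon in blue, filled circles and solid lines for fragmented cDNA and open squares and dashed lines for ribosomal RNA depletion. The grey line is an even 10%. Ace climbs to the 3′ end with fragmented cDNA only, and Dpp4 and Enpep drop near the 3′ end in all libraries drawn.

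Among the other 8 genes, in the cDNA fragmented library of small intestine the share of reads in the 3′ 50% of the length ran from 38.1% for Dpp4 to 63.8% for Mep1b, and in the ribosomal RNA-depleted library from 40.8% for Tmprss15 to 57.7% for Mep1a. Scaled by total reads, the tissue ratio kept its direction in both parts of every gene. For Anpep it was 667 (568 to 788) over the 5′ 50% and 480 (422 to 547) over the 3′ 50% with fragmented cDNA. For Mep1a it was 0.884 (0.844 to 0.927) over the 5′ 50% and 0.683 (0.657 to 0.710) over the 3′ 50% in the same pair. Median-of-ratios scaling shifts the log2 ratio of that pair up by 0.33. That would carry the 5′ value of Mep1a past equal levels and leave its 3′ value below them.

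Some annotated stretches had few reads in every library, which lowers an RPKM taken over the full length. In Dpp4, block 1 of 446 bases was at 20.3 RPKM and block 25 of 1107 bases at 55.2 RPKM in the cDNA fragmented library of small intestine, beside 642 RPKM over blocks 2 to 24. Over blocks 2 to 24 the tissue ratio of Dpp4 was 56.8 (52.3 to 61.7) and 7.31 (6.30 to 8.52), near that of the whole gene. The last 10% of the length of Enpep held 0.423% of its reads in the cDNA fragmented library of small intestine and 0.0845% in the ribosomal RNA-depleted one. In Mme, block 1, at chr3:63099794-63099871, had 0 reads in all 4 libraries, while block 2 had 1040 in the cDNA fragmented library of small intestine. RefSeq gives 3 starts for Mme, of which block 1 begins at the second. Block 2 of Mep1a is 25 bases long and cannot hold a whole read.

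The strand could be read in the ribosomal RNA-depleted libraries, where 98.4% and 98.3% of all reads on genes lay in the sense direction. On the peptidases, 0 of 24595 reads in small intestine lay antisense, which allows a share of up to 0.0122% at 3 reads, and 1 of 3656 in colon did, on Naaladl1. In the cDNA fragmented libraries, which do not keep the strand, the sense share of single genes in small intestine ran from 47.2% for Tmprss15 to 55.4% for Naaladl1. Reads were not spread over start positions alike in the protocols. For Anpep in small intestine the busiest start position held 0.0807% of the reads with fragmented cDNA and 6.66% with ribosomal RNA depletion, and the 193301 reads of the first library fell on 5331 start positions.

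The pattern of the 9 genes over the 4 libraries was compared with that of the 7812 other genes that reached 10 RPKM in at least 1 library, by the Euclidean distance of centred log2(RPKM + 1) values to the median pattern of the 9. Among the peptidases, Naaladl1 lay nearest to that median at 0.843 and Mep1a farthest at 5.45. The 5 nearest other genes were G6pc at 0.570, Xpnpep2 at 0.675, Soat2 at 0.715, Slc30a2 at 0.746 and Abcg8 at 0.749. They encode the catalytic subunit of glucose-6-phosphatase, the aminopeptidase P of the membrane, a sterol acyltransferase, a zinc transporter and a part of the sterol exporter of the apical membrane. The likeness rests on 4 libraries that also differ in protocol and depth.

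Other peptidases of the cell surface did not share the tissue pattern as a group. Of 16 listed, 13 had enough reads in each pair, and 3 met the rule for small intestine and 2 for colon in both protocols. Over all genes tested the shares were 2.99% and 4.14% for small intestine and 3.51% and 7.33% for colon. The same shares stand beside the list counts that follow. The median log2 ratio of the listed genes was -0.63 with fragmented cDNA and -0.09 with ribosomal RNA depletion. Among the 3 genes called for small intestine were Xpnpep2, a membrane aminopeptidase P, and Ggt1, a gamma-glutamyltransferase. Xpnpep2 had ratios of 56.4 (48.3 to 66.3) and 22.2 (17.3 to 29.0), and Ggt1 had ratios of 31.6 (29.1 to 34.5) and 29.8 (20.2 to 45.7). The 2 higher in colon were serine proteases of the epithelial surface. Tmprss2 was 3.82-fold higher there (3.71 to 3.94) with fragmented cDNA and 4.39-fold (3.91 to 4.95) with ribosomal RNA depletion, and Prss8, prostasin, was 3.62-fold (3.28 to 3.997) and 5.67-fold higher (3.65 to 9.23). Dpep1, a dipeptidase, had a high level in both tissues, 508 and 295 RPKM with fragmented cDNA and 164 and 142 RPKM with ribosomal RNA depletion.

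Of 13 peptidases that work inside the cell on di- and tripeptides and other short chains, 5 met the rule for small intestine with fragmented cDNA and 4 with ribosomal RNA depletion, and 0 met it for colon in either. Their median log2 ratios were 0.54 and 0.71. Pepd, prolidase, which splits dipeptides that end in proline, had a ratio of 12.5 (12.04 to 13.1) in the cDNA fragmented pair and 13.8 (10.1 to 19.3) in the ribosomal RNA-depleted pair. Cndp2, a cytosolic dipeptidase, had ratios of 8.02 (7.47 to 8.61) and 13.4 (11.3 to 16.1). Lap3, leucine aminopeptidase, had ratios of 12.1 (11.5 to 12.8) and 7.06 (5.91 to 8.48), and Xpnpep1, aminopeptidase P, ratios of 8.18 (7.86 to 8.52) and 6.71 (5.66 to 8.005). The oligopeptidases Thop1 and Prep were higher in colon with fragmented cDNA, with ratios of colon to small intestine of 2.06 (1.09 to 4.06) and 1.85 (1.55 to 2.22), below the rule's threshold.

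The pancreatic zymogens, which enteropeptidase and trypsin activate, went opposite ways in the 2 protocols. Of 14 listed, 11 were tested in each pair. With fragmented cDNA, 10 met the rule for colon and 0 for small intestine, with a median log2 ratio of -6.33. With ribosomal RNA depletion, 10 met it for small intestine and 0 for colon, with a median of 8.08, or 7.44 with genes at 0 in one library set to their bound. Ctrb1, chymotrypsinogen B, had 3 reads in small intestine and 1773 in colon in the first pair, and 1595 and 5 in the second. Cela2a, an elastase, had 0 and 5503 reads in the first pair and 1312 and 8 in the second. Prss2, a trypsinogen, had 0 and 867 reads in the first pair and 217 and 1 in the second, and Try4, another trypsinogen, had 0 and 38 reads and then 13 and 0. Cela1 was also at 18.3 RPKM in small intestine and 544 in colon with fragmented cDNA, and at 496 and 291 RPKM with ribosomal RNA depletion. None of the 9 brush border genes had intervals on opposite sides of 1 in the 2 pairs. The part of the zymogen difference in the peptidase ratios was not tested.

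**Figure D5:**
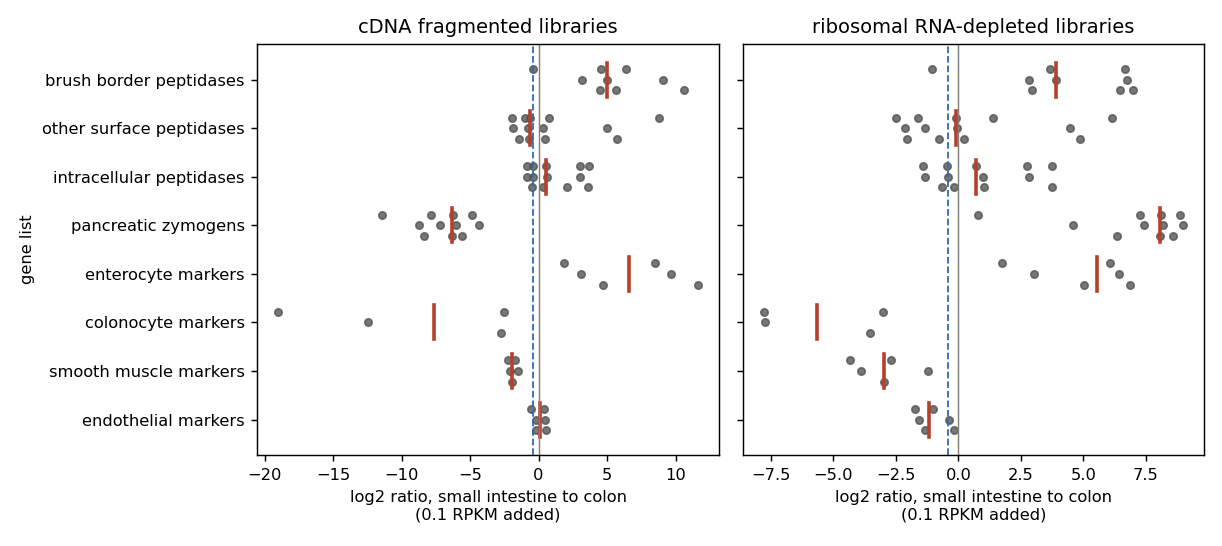
Log2 ratio of small intestine to colon, with 0.1 RPKM added, for the tested genes of 8 lists in each protocol. Points are genes, red bars are list medians, the grey line marks equal levels and the dashed line the median of all genes tested (-0.37 and -0.41). The brush border peptidases lie to the right in both panels apart from Mep1a, and the pancreatic zymogens lie on opposite sides.

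Markers of several cell types also differed between the tissues. Of the 5 smooth muscle markers, 4 met the rule for colon in each pair, with summed levels of 219 RPKM against 826 RPKM in colon with fragmented cDNA and of 188 against 1762 with ribosomal RNA depletion. The 6 enterocyte markers had a median log2 ratio of 6.59 and 5.55, above the medians of the brush border peptidases, 5.03 and 3.91. Villin, Vil1, which bundles actin in the microvilli of both tissues, had ratios of 3.67 and 3.36, so that 8 of the 9 peptidases had a larger ratio than it in each pair. Dpp4 and Anpep are also carried by lymphocytes and by myeloid and stromal cells. The 5 T cell markers summed to 65.5 RPKM in small intestine and 12.3 in colon with fragmented cDNA, and to 15.4 and 9.78 with ribosomal RNA depletion, with 3 and 0 of them called for small intestine and 0 and 1 for colon. The 3 macrophage markers summed to 28.9 and 22.8 RPKM in the first pair and to 14.6 and 18.3 in the second, and the 4 fibroblast markers to 203 and 229 and to 50.3 and 192. None of the enterocyte or smooth muscle markers was at 0 in any library. The part of these differences in cell make-up in the peptidase ratios was not tested.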

How the data were processed

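The deposited read files list, per the file headers, 35-color SOLiD reads that the authors matched to RefSeq exon blocks and exon junctions of mm9 with at most 3 color mismatches. The authors' table of exon blocks gives each block's place. Per the labels, libraries were ribosomal RNA-depleted or polyadenylated, and in the latter the ends of the cDNA were removed, per the study's methods. The values in the deposited files used here were not normalized. Here, uniquely placed reads were counted by their midpoint over the blocks of each gene with Python 3.11.15 (NumPy 2.4.6, pandas 2.3.3, SciPy 1.17.1, matplotlib 3.10.9), blocks were joined to 20799 condensed genes by the annotated junctions and named from GENCODE M1. Reads placed on junction sequences (0.754% to 0.822%, of which 86.1% to 90.2% had 3 mismatches) were left out, so reads across exon borders are not counted. Levels are RPKM, and intervals are exact at 95% and cover counting error only. The code of the 3-fold rule and of the ratio interval was checked on simulated Poisson counts. These hold no repeated copies of a molecule and no spread between animals, so the check says nothing on either. The members and lists were chosen with earlier results of these data known. Named genes are the 9 members, and from each of the other peptidase lists those with most reads and the largest ratios in the cDNA fragmented pair. Ggt1 and Cndp2 were named after their values were seen, and 1 gene that the rule names is not reported here. The stretches of Ace, Dpp4 and Mme were chosen after their values were seen. Depth ran from 2035386 to 24798934 uniquely placed reads per library. Alternatives were a limit of 1 mismatch, start positions in place of reads, median-of-ratios scaling, sense reads, the last 1000 bases, blocks shared with no other gene, a penalty of 0.1 RPKM, 1 or 50 reads as minimum and a fold of 2. Protein sequences were not analysed here.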

Additional observations from a re-analysis of the deposited data

Results flagged for a closer look

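The following peptidase results lay on opposite sides of equality in the 2 protocols. For single genes the counting interval left out a ratio of 1 in each protocol, and for the zymogens, where 11 of 14 genes met this, the median is given without an interval. The difference between protocols was not tested. The pancreatic zymogens had a median log2 ratio of small intestine to colon of -6.33 in the cDNA fragmented pair and 8.08 in the ribosomal RNA-depleted pair. St14, matriptase, a serine protease of the epithelial surface, had log2 ratios of -0.78 and 1.41 in the same order. Lnpep, a membrane aminopeptidase that cuts oxytocin, had 0.46 and -0.79. Tpp2, tripeptidyl peptidase 2, a large cytosolic exopeptidase, had 0.34 and -0.43. Median-of-ratios scaling, which shifts the log2 ratio of the ribosomal RNA-depleted pair up by 0.34, brings the interval of Tpp2 there to include equal levels, so its opposite direction does not hold under that scaling. None of the 9 brush border peptidases was among these.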

How the results depend on the processing

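All 9 brush border peptidases kept the sign of their log2 tissue ratio under every alternative run. Mep1a came close to equal levels in the cDNA fragmented pair. The number at least 3-fold higher in small intestine stayed at 8 in both pairs, except that counting start positions left 7 in the cDNA fragmented pair, where the log2 ratio of Mep1b fell from 3.19 to 0.96. A gene offers a limited number of start positions, so this count saturates for abundant transcripts, and Anpep went from 9.08 to 3.98. A fold of 2 in place of 3 called 1 gene, Mep1a, for colon in the ribosomal RNA-depleted pair, where 17.4% of all genes tested were called for colon at that fold. With start positions the median log2 ratio over the 9 genes in the cDNA fragmented pair went from 5.03 to 3.98. That of the ribosomal RNA-depleted pair, 3.91, became 2.77 with start positions, 4.25 with median-of-ratios scaling and 4.79 over the last 1000 exonic bases. Mep1a in the cDNA fragmented pair stood at -0.40 and ran from -0.60 over the last 1000 bases to -0.04 with start positions. With median-of-ratios scaling it was at -0.07. The values near equal levels are given without an interval, so no colon excess is read from them. Low counts limited the colon values of Mme and Tmprss15, which rest on 3 and 0 reads with fragmented cDNA and on 26 and 2 with ribosomal RNA depletion. Adding 1 RPKM in place of 0.1 changed the sign of no list median. No paired analysis was possible within a protocol, because each tissue had 1 library there, and no replicate could be left out. A fit of tissue with protocol as a block over all 4 libraries could be made but was not run.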
